A study of Mus musculus with 6 samples.

Results

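Fatty acid oxidation and the targets of PPARα were followed in mouse intestinal organoids through 33 genes. The genes were taken by symbol from a list of mitochondrial and peroxisomal oxidation enzymes, thioesterases, regulators and PPAR targets. All 33 were found among the 31227 genes of the table, and all 33 were among the 15503 genes that passed the filter on low counts. Acot12 passed it only through the treated libraries, and Pdk4 was at 0 in 2 of the 6 libraries, so these genes are described apart.

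Organoids are small cultures of intestinal epithelium that keep stem cells and their differentiated progeny. RNA was sequenced from 2 wild-type (WT) libraries, 2 Smad4-deficient (Smad4 KO) libraries and 2 Smad4-deficient libraries given TGF-β (Smad4 KO+TGFb). Smad4 joins the receptor-activated SMADs of the TGF-β and BMP pathways and enters the nucleus with them. All cultures were grown with EGF, the BMP inhibitor Noggin and R-spondin1, and every title carries 48 h. The treated cultures received 0.5 nM TGF-β, and the wording of the protocol leaves unclear whether 48 h was the whole exposure or was followed by a further 2 days. Wild-type organoids with TGF-β were not analysed here, so the response to TGF-β could be compared only among Smad4-deficient cultures. The labels do not say how Smad4 was inactivated, nor the strain, age or number of animals. Nor do they say that replicates came from separate cultures, so p-values measure only the spread between these libraries, which may be technical.

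Long-chain fatty acids are joined to coenzyme A, handed to carnitine for entry into mitochondria, and shortened there by a repeating cycle of dehydrogenation, hydration, a further dehydrogenation and thiolysis. Peroxisomes run a similar cycle, mainly on very long and branched chains. PPARα is a nuclear receptor activated by fatty acids that binds DNA together with RXR, and in the intestine it is known for the response of absorptive cells to dietary fat.

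Levels are given as counts scaled by TMM to a library of 1e+06 (CPM), which describe 1 gene across libraries. Levels of different genes are compared only as CPM per kb of exon. Log2 fold changes are given with the SE of the fit, and a gene was called higher or lower at an edgeR adjusted p (Benjamini-Hochberg, over all 15503 genes) under 0.05.

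The libraries held 40.55 to 50.7 M units, where a sequenced fragment was inferred to add about 4 units. Replicates of a group correlated more closely across genes (r of log2 CPM 0.971 to 0.976) than libraries of different groups (0.923 to 0.959). Smad4 was at 99.3 and 109 CPM in WT, 21.7 and 23.1 in Smad4 KO and 25.2 and 29.5 in Smad4 KO+TGFb (Smad4 KO against WT, log2 fold change -2.22 ± 0.11, edgeR adjusted p = 2.72e-05). All 24 markers of enterocytes, the absorptive cells of the epithelium, were detected. Of 6 fibroblast markers, 4 were at 0 in every library and the summed level did not exceed 0.479 CPM. Of 8 adipocyte markers, 4 were at 0 (Adipoq, Plin1, Lep and Adrb3), and nearly all of the summed level of 9.06 to 20.7 CPM was Cidec.

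Most members were higher in Smad4 KO than in WT. Of the 33, 26 were called higher and 0 lower, while 30.3% of all genes tested were called, 16.9% higher and 13.4% lower. At an unadjusted p under 0.05, 1 member (Acsl1) was lower, and DESeq2 called 0 lower. The 7 members not called were Acsl1, Etfa, Etfb, Eci1, Eci2, Acot12 and Pdk4. The median log2 fold change over the members was 0.59, against -0.02 over all genes tested. Without Acot12 and Pdk4 it was also 0.59. In 28 members both Smad4 KO libraries lay above both WT libraries, and in 2 (Acsl1 and Pdk4) both lay below. Of all 15503 genes tested, 4986 lay above and 5350 below, so 66.7% did not overlap between these groups.

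Summed over the 33 members, the level was 3030 and 2980 CPM in WT, 4600 and 4730 in Smad4 KO, and 3720 and 3710 in Smad4 KO+TGFb. The treated libraries lay between the other groups. In Smad4 KO+TGFb against Smad4 KO, 15 members were called lower and 0 higher, while 16.3% of all genes tested were called, 8.48% lower and 7.78% higher. At an unadjusted p under 0.05, and by DESeq2, 0 were higher. With either treated library left out, fewer members were called lower, and fewer of all genes tested were called as well. The median log2 fold change of the members was -0.28, against -0.01 over all genes, and it was -0.30 without Acot12 and Pdk4. In 26 members both treated libraries lay below both Smad4 KO libraries and in 2 above. Without Acot12 and Pdk4 these counts were 26 and 1. Of all 15503 genes tested, 4515 lay below and 4299 above, so 56.9% did not overlap.

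Against WT, the treated Smad4-deficient organoids had 16 members called higher and 3 called lower, namely Acsl1, Hadh and Eci2. Among all genes tested, 39.7% were called in this comparison, 20.7% higher and 19% lower. The median log2 fold change of the members was 0.31, against -0.02 over all genes. The treated libraries lay above both WT libraries in 21 members and below them in 7. Without Acot12 and Pdk4 these counts were 20 and 6. Of all 15503 genes tested, 5427 lay above and 5784 below, so 72.3% did not overlap. Because each pair of comparisons shares a group of libraries, their results are not independent of each other.

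Marker genes of cell types differed between the same groups. The summed level of the 24 enterocyte markers was 7950 and 7930 CPM in WT, 24700 and 24800 in Smad4 KO and 16500 in both Smad4 KO+TGFb libraries. Of these markers 21 rose and 2 fell in Smad4 KO against WT, and 22 fell and 1 rose when TGF-β was added. Over all genes tested, 16.9% rose and 13.4% fell in Smad4 KO, and 7.78% rose and 8.48% fell with TGF-β. The summed level of 15 markers of crypt base stem cells was 8020 and 7940 CPM, 4710 and 4730 CPM, and 3220 and 3190 CPM in the same order, and none of either list was at 0. Of the 15 stem cell markers, 14 fell in Smad4 KO and 9 with TGF-β, and 0 rose. Of 10 Paneth cell and 11 enteroendocrine markers, 9 and 8 fell in Smad4 KO and 0 rose. Their summed levels went from 8520 and 8550 to 3360 and 3540 CPM and from 1030 in both WT libraries to 413 and 429 CPM. With TGF-β, 3 Paneth cell markers rose and 1 fell, and 0 enteroendocrine markers were called. Of 10 goblet cell markers, 2 rose and 6 fell in Smad4 KO. With TGF-β 9 of them fell and 0 rose, from a summed 3910 and 3800 to 2010 and 2000 CPM. Of 9 markers of fetal or regenerating epithelium tested, 7 rose and 1 fell in Smad4 KO and 8 rose with TGF-β. The summed level of that list was 414 and 386 CPM in WT, 1080 and 1070 in Smad4 KO, and 4460 and 4550 in Smad4 KO+TGFb. The part of these cell types in the results below was not tested, and in bulk samples more cells of a type cannot be told apart from more RNA per cell.

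**Figure D1:**
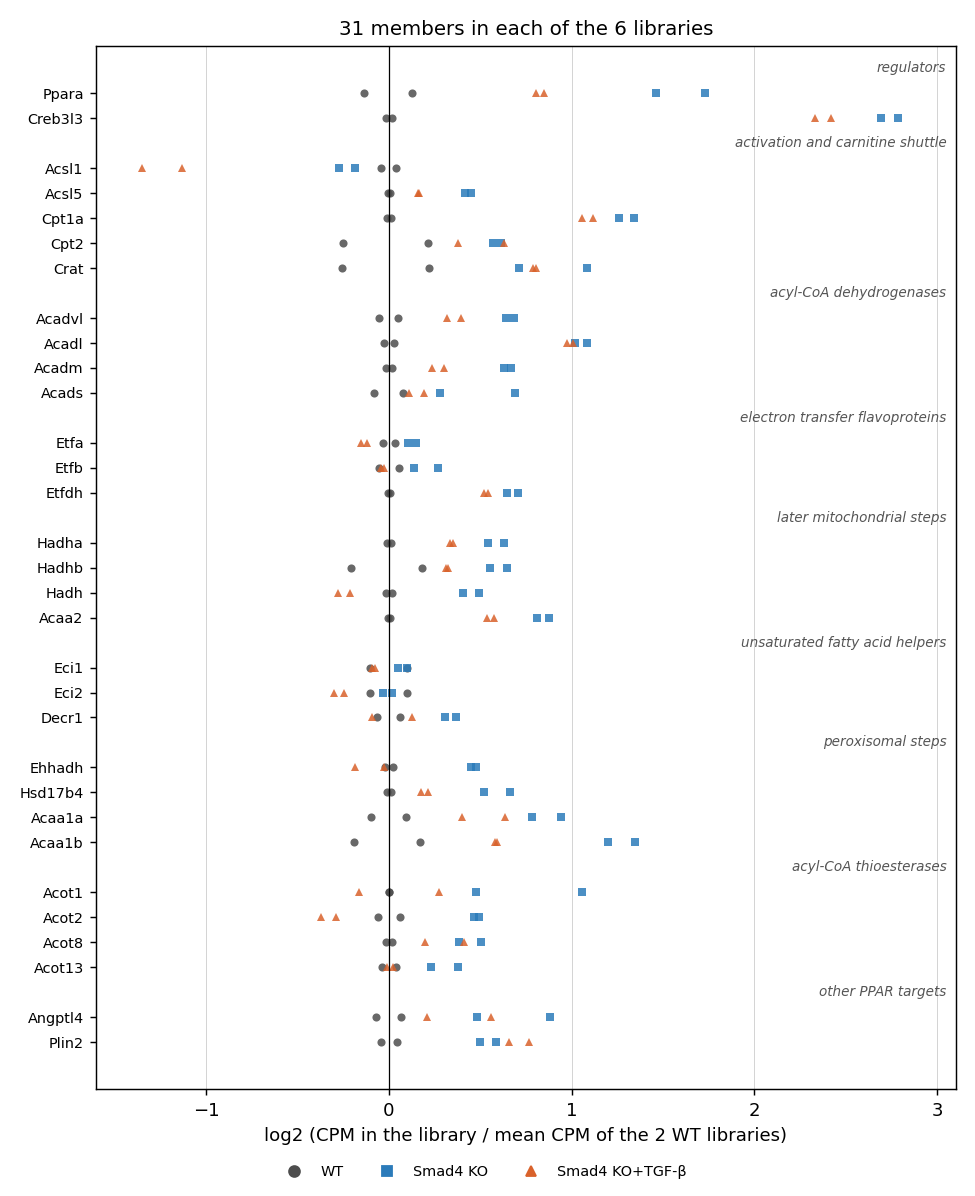
Each symbol is 1 library, placed by the log2 ratio of its CPM to the mean CPM of the 2 WT libraries, for the 31 members other than Acot12 and Pdk4, grouped by role. Most Smad4 KO squares lie to the right of the WT circles, most Smad4 KO+TGFb triangles lie between them, and Acsl1 lies to the left in both Smad4-deficient groups.

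The regulators showed the largest rises in Smad4 KO. Ppara encodes PPARα itself and lies at chr15:85734983-85802819 on the plus strand of GRCm38. It was at 13.6 and 16.3 CPM in WT, 41.1 and 49.4 in Smad4 KO and 26.9 and 26.1 in Smad4 KO+TGFb. The groups did not overlap, and the treated libraries lay midway. Ppara rose in Smad4 KO against WT (log2 fold change 1.60 ± 0.13, 3.03-fold, edgeR adjusted p = 0.000325). It was lower with TGF-β (-0.77 ± 0.13, edgeR adjusted p = 0.0101), a call lost at adjusted p from 0.0549 to 0.0611 without Smad4 KO library 2 or either treated library. It remained above WT in the treated organoids (0.83 ± 0.13, edgeR adjusted p = 0.0034).

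Creb3l3 encodes CREBH, a membrane-bound transcription factor of liver and intestine that is released by proteolysis and acts with PPARα on lipid genes. Its level was 42.8 and 43.7 CPM in WT, 279 and 298 in Smad4 KO, and 217 and 231 in Smad4 KO+TGFb. All 4 Smad4-deficient libraries lay far above both WT libraries. The rise in Smad4 KO was the largest of any member (log2 fold change 2.74 ± 0.06, 6.67-fold, edgeR adjusted p = 1.42e-06). With TGF-β it fell by 0.36 ± 0.06 on the log2 scale (edgeR adjusted p = 0.00639) and stayed 5.18-fold above WT (2.37 ± 0.06, edgeR adjusted p = 1.51e-06).

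PPARα with RXR binds a direct repeat of AGGTCA with 1 base between the copies, so the promoters were searched for AGGTCANAGGTCA on both strands, with mismatches allowed outside the spacer N. RefSeq promoters (250 bases before to 50 after a start, GRCm38.p6) were matched for 27 of the 33 members. With up to 2 mismatches a match was found in 4 of the 27 (14.8%), against 4.4% of 27025 genes with a promoter. With up to 3 mismatches the shares were 33.3% and 27.3%. The 4 windows are printed because they show how each copy departs from the repeat, with the 13 matched bases in capitals and each read 5′ to 3′ along the gene.
Creb3l3: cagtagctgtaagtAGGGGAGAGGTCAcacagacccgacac
Acot12: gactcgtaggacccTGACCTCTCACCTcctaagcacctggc
Etfa: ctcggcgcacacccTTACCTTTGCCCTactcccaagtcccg
Plin2: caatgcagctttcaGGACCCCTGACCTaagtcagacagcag
The Creb3l3 window is chr10:81092774-81092814 on the minus strand. Its match has 2 mismatches and reads in the direction of the gene, 209 bases before the nearer of the starts that RefSeq lists. That start lies inside the gene as GENCODE M21 draws it (chr10:81084324-81098874), and 8 bases of the window fall in an annotated exon. The Acot12 window is chr13:91741397-91741437 on the plus strand, with 1 mismatch, 110 bases before the start. The Etfa window is chr9:55512294-55512334 and the Plin2 window chr4:86670258-86670298, both of minus-strand genes, each with 2 mismatches, 77 and 225 bases before the start. In Acot12, Etfa and Plin2 the repeat reads against the gene, so AGGTCA appears as TGACCT or close to it. A match is a resemblance of letters, not a measured binding site, and it does not tell which factor would bind.

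**Figure D2:**
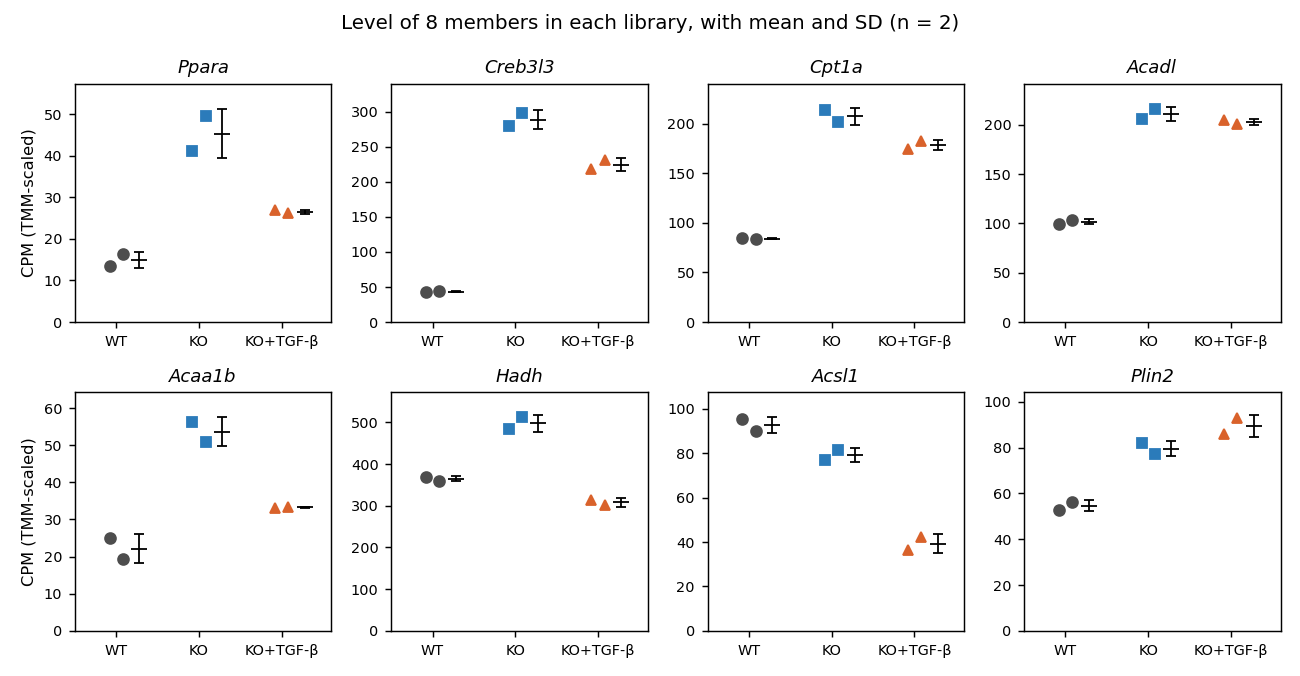
Level in CPM of 8 members in each library, with the mean and SD of the 2 libraries of each group beside the points, on axes that start at 0. Creb3l3, Cpt1a and Acadl stay above WT with TGF-β, Hadh drops to 315 and 301 CPM, below WT, and Acsl1 falls to 36.3 and 42.4 CPM.

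Fatty acids are activated by the acyl-CoA synthetases and cross into mitochondria on carnitine. Of the 5 members with these roles, 4 rose in Smad4 KO against WT and 3 fell when TGF-β was added. The shares over all genes tested were 16.9% and 8.48%. Cpt1a (chr19:3322334-3385733, plus strand) encodes the carnitine palmitoyltransferase of the outer membrane, the rate-limiting step of entry. It was at 84.7 and 83.5 CPM in WT, 213 and 201 in Smad4 KO, and 175 and 182 in Smad4 KO+TGFb. It rose 2.46-fold in Smad4 KO (log2 fold change 1.3 ± 0.05, edgeR adjusted p = 1.51e-05) and stayed 2.12-fold above WT with TGF-β (1.09 ± 0.05, edgeR adjusted p = 2.19e-05). The difference between treated and untreated Smad4 KO was small (-0.22 ± 0.05, edgeR adjusted p = 0.0366). That call was lost whichever single library was left out, with a replicate block (edgeR adjusted p = 0.0744) and in a fit of the 4 libraries compared (0.053).

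The synthetases went different ways. Acsl5, a synthetase abundant in the intestine, was at 461 and 457 CPM in WT, 612 and 627 in Smad4 KO, and 512 and 515 in Smad4 KO+TGFb. It rose in Smad4 KO (0.43 ± 0.03, edgeR adjusted p = 0.000117) and fell with TGF-β by 0.27 ± 0.03 (edgeR adjusted p = 0.00149), to a level slightly above WT (0.16 ± 0.03, edgeR adjusted p = 0.00484). Acsl1, the long-chain synthetase best known from liver, heart and fat, was at 95.3 and 90.2 CPM in WT, 76.9 and 81.6 in Smad4 KO, and 36.3 and 42.4 in Smad4 KO+TGFb. Of the 3 members called lower than WT in the treated organoids, Acsl1 was the furthest below. The difference of Smad4 KO from WT did not pass the threshold (-0.23 ± 0.09, edgeR adjusted p = 0.105), although the libraries did not overlap. With TGF-β it fell 2.01-fold (-1.01 ± 0.09, edgeR adjusted p = 0.000832), to 2.36-fold below WT (-1.24 ± 0.09, edgeR adjusted p = 0.000115).

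Cpt2, which returns the acyl group to coenzyme A inside the mitochondrion, was at 54.1 and 74.5 CPM in WT, 98.3 and 95.3 in Smad4 KO, and 83.6 and 99.3 in Smad4 KO+TGFb. Crat, the carnitine acetyltransferase, was at 31 and 22.4, 56.7 and 43.7, and 46.2 and 46.6 CPM in the same order. Both rose in Smad4 KO (log2 fold change 0.59 and 0.91, edgeR adjusted p = 0.0319 and 0.0117), and for both the treated libraries overlapped the Smad4 KO libraries. The rise of Cpt2 was not called without WT library 1 (adjusted p = 0.0859), Smad4 KO library 1 (0.111) or Smad4 KO library 2 (0.0919). That of Crat was not called without Smad4 KO library 1 (0.0571). In Smad4 KO+TGFb against WT both were called higher (0.51 and 0.80, edgeR adjusted p = 0.0424 and 0.0149). The call of Cpt2 was lost without WT library 1, either treated library or either Smad4 KO library. It was also lost in a fit of the 4 libraries compared (edgeR adjusted p = 0.0647). That of Crat was lost without WT library 2 or either treated library.

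The acyl-CoA dehydrogenases carry out the opening step of each cycle, and each prefers chains of another length. All 4 rose in Smad4 KO, beside 16.9% of all genes tested. Acadl (chr1:66830839-66863277, minus strand), the long-chain enzyme, was at 99.9 and 104 CPM in WT, 206 and 216 in Smad4 KO, and 205 and 201 in Smad4 KO+TGFb. It rose 2.07-fold in Smad4 KO (log2 fold change 1.05 ± 0.05, edgeR adjusted p = 2.75e-05) and was 1.99-fold above WT with TGF-β (0.99 ± 0.05, edgeR adjusted p = 2.45e-05). Between treated and untreated Smad4 KO no difference was called (-0.06 ± 0.05, 95% interval -0.18 to 0.06, edgeR adjusted p = 0.511). Among the dehydrogenases the level of Acadl differed least with TGF-β.

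Acadvl, the very long-chain enzyme, was at 103 and 96.2 CPM in WT, 161 and 156 in Smad4 KO, and 124 and 131 in Smad4 KO+TGFb. Acadm, the medium-chain enzyme, was at 77.6 and 79.6, 121 and 125, and 92.4 and 96.9 CPM in the same order. Both rose in Smad4 KO (0.66 ± 0.06 and 0.65 ± 0.06, edgeR adjusted p = 0.000443 and 0.000342) and were lower with TGF-β (-0.31 ± 0.06 and -0.38 ± 0.06, edgeR adjusted p = 0.0168 and 0.00546), with no overlap between any groups. Against WT the treated libraries were higher (0.36 and 0.27, edgeR adjusted p = 0.0041 and 0.00917). The call of Acadvl with TGF-β was lost whichever of the 4 Smad4-deficient libraries was left out (adjusted p 0.0523 to 0.108). That of Acadm against WT was lost without WT library 1 (0.0543) or treated library 2 (0.062). Of the exon bases of Acadvl, 42.9% overlap Dvl2 on the opposite strand, and the strand setting of the counts is not given in the sources used here. Acads, the short-chain enzyme, was at 53.6 and 59.7, 68.8 and 91.5, and 64.6 and 61.0 CPM. It was called higher in Smad4 KO (0.50, edgeR adjusted p = 0.0361). That call was lost in a fit of the 4 libraries compared (edgeR adjusted p = 0.0556) and when any single library but Smad4 KO library 1 was left out. With TGF-β it was called lower only without that library (0.0264, against 0.15 with all).

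Electrons from these enzymes pass to the electron transfer flavoprotein, a dimer of Etfa and Etfb, and on to its dehydrogenase Etfdh. Etfdh, at 72.9 and 73.3 CPM in WT, 114 and 119 in Smad4 KO and 106 and 105 in Smad4 KO+TGFb, rose in Smad4 KO (log2 fold change 0.68 ± 0.05, edgeR adjusted p = 0.000242). It stayed above WT with TGF-β (0.53 ± 0.05, edgeR adjusted p = 0.000426). Etfa was at 168 and 161 CPM in WT, 177 and 183 in Smad4 KO, and 151 and 148 in Smad4 KO+TGFb. The groups did not overlap, with the treated libraries lowest, but Smad4 KO against WT did not pass (0.13 ± 0.05, edgeR adjusted p = 0.1), though DESeq2 called it higher (adjusted p = 0.0431). It was lower with TGF-β (-0.26 ± 0.05, edgeR adjusted p = 0.0144), but not without Smad4 KO library 2 (adjusted p = 0.0738) or treated library 1 (0.0689) or 2 (0.087). Etfb ran from 66.7 to 83.6 CPM over the 6 libraries and was called in no comparison by edgeR (adjusted p = 0.0813, 0.0772 and 0.739). DESeq2 called it higher in Smad4 KO (adjusted p = 0.0451) and lower with TGF-β (0.0373). Its value is uncertain, because 58.2% of its exon bases overlap Gm45233 or Mir7051 on the same strand. A processed pseudogene, Gm15285, matches Etfa at 92.8% over 489 bases.

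The later mitochondrial steps are hydration, the further dehydrogenation and thiolysis. All 4 members rose in Smad4 KO and 3 fell with TGF-β, beside 16.9% and 8.48% of all genes tested. Hadha and Hadhb encode the subunits of the trifunctional protein, which carries out these steps on long chains. The genes are annotated head to head on chromosome 5, Hadha on the minus strand ending at 30155162 and Hadhb on the plus strand beginning at 30155248. The 85 bases between their GENCODE starts (chr5:30155163-30155247, plus strand, sequence from RefSeq GRCm38.p6) are printed because both genes are read away from them. No base is in capitals.
Hadha and Hadhb: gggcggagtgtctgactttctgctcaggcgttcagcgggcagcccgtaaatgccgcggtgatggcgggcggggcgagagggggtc
Hadha was at 246 and 250 CPM in WT, 361 and 384 in Smad4 KO, and 312 and 317 in Smad4 KO+TGFb. Hadhb was at 97.4 and 74.4, 126 and 135, and 107 and 107 CPM in the same order. The groups did not overlap in either gene, although the WT libraries of Hadhb differed more from each other than those of Hadha. The rise in Smad4 KO was 0.59 ± 0.04 for Hadha (edgeR adjusted p = 0.000179) and 0.60 ± 0.12 for Hadhb (edgeR adjusted p = 0.012), and that of Hadhb was lost without Smad4 KO library 2 (0.0599). Hadha was lower with TGF-β (-0.24 ± 0.04, edgeR adjusted p = 0.0109), but not without Smad4 KO library 2 (0.0516), treated library 1 (0.0705) or treated library 2 (0.0523), and stayed above WT (0.34 ± 0.04, edgeR adjusted p = 0.0011). Hadhb was not called with TGF-β against Smad4 KO (-0.28 ± 0.12, edgeR adjusted p = 0.186) or WT (0.32 ± 0.12, edgeR adjusted p = 0.0838). It was called in the former without WT library 1 (0.0361) or 2 (0.0327) and in a fit of the 4 libraries compared (0.0326), and in the latter without WT library 1 (0.00595) and by DESeq2 (0.0291). Processed pseudogenes that match Hadhb at 99.8% (Gm13910) and 97.6% (Gm9108) make its value uncertain.

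Hadh (chr3:131233419-131272101, minus strand) encodes the hydroxyacyl-CoA dehydrogenase of shorter chains. It was at 369 and 361 CPM in WT, 484 and 513 in Smad4 KO, and 315 and 301 in Smad4 KO+TGFb. Smad4 KO was the highest group and the treated group the lowest, with no overlap. Hadh rose in Smad4 KO (log2 fold change 0.45 ± 0.04, edgeR adjusted p = 0.000582), fell with TGF-β by 0.69 ± 0.04 (1.62-fold, edgeR adjusted p = 0.000191) and ended below WT (-0.24 ± 0.04, edgeR adjusted p = 0.0053). Acaa2, the mitochondrial thiolase, was at 171 and 172, 300.5 and 314, and 249 and 256 CPM in the same order. Acaa2 rose in Smad4 KO (0.84 ± 0.04, edgeR adjusted p = 3.7e-05), was lower with TGF-β (-0.28 ± 0.04, edgeR adjusted p = 0.00611) and stayed above WT (0.56 ± 0.04, edgeR adjusted p = 0.000138).

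The helpers for unsaturated chains differed little between groups, and 1 of the 3 rose in Smad4 KO, beside 16.9% of all genes tested. Their summed level was 173 and 153 CPM in WT, 180 and 186 in Smad4 KO, and 159 and 147 in Smad4 KO+TGFb. Decr1, the mitochondrial dienoyl-CoA reductase, was at 68.6 and 62.9, 81.5 and 84.7, and 71.8 and 61.8 CPM in the same order. It was called higher in Smad4 KO (log2 fold change 0.34 ± 0.09, edgeR adjusted p = 0.0335), a call lost without either WT library (0.0609 and 0.157) or either Smad4 KO library (0.0841 and 0.128). With TGF-β it did not pass (-0.32 ± 0.09, edgeR adjusted p = 0.0654) except by DESeq2 (0.0204), and the treated libraries lay on either side of WT. Eci1 and Eci2, the isomerases that move a double bond into place, ran from 45.9 to 52.7 CPM and from 38.9 to 51.4 CPM over the 6 libraries. Neither was called in Smad4 KO against WT (0.08 and -0.01, edgeR adjusted p = 0.564 and 0.963), where both overlapped. Eci2 was called lower in treated organoids against WT at the threshold (-0.28 ± 0.09, edgeR adjusted p = 0.0499). That call was lost whichever library other than WT library 2 was left out, with a replicate block (edgeR adjusted p = 0.0656) and with other size factors (0.0588). It was also lost with no filter on low counts (edgeR adjusted p = 0.0582) and in a fit of the 4 libraries compared (0.0715).

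In peroxisomes all 4 members of the cycle rose in Smad4 KO and 3 fell with TGF-β, beside 16.9% and 8.48% of all genes tested. Ehhadh, the bifunctional enzyme classically induced by PPARα ligands in rodent liver, was at 99.8 and 97.1 CPM in WT, 134 and 137 in Smad4 KO, and 96.6 and 86.7 in Smad4 KO+TGFb. It rose in Smad4 KO (0.46 ± 0.07, edgeR adjusted p = 0.00305) and fell with TGF-β by 0.57 ± 0.07 (edgeR adjusted p = 0.00242), to just below both WT libraries, a difference that was not called (-0.10 ± 0.07, edgeR adjusted p = 0.266). Hsd17b4, the other bifunctional enzyme, which also takes branched chains, was at 161 and 159, 229 and 253, and 186 and 181 CPM. Hsd17b4 rose in Smad4 KO (0.59 ± 0.06, edgeR adjusted p = 0.000623) and was lower with TGF-β (-0.40 ± 0.06, edgeR adjusted p = 0.00558). Above WT it was called with TGF-β (0.19 ± 0.06, edgeR adjusted p = 0.0384), but not without either WT library (0.104 and 0.137) or either treated library (0.145 and 0.097), nor with a replicate block (0.0634).

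The peroxisomal thiolases Acaa1a and Acaa1b match each other at 96.6% over 1428 bases, so the split of reads between them is uncertain. Acaa1b was at 24.9 and 19.4 CPM in WT, 56.4 and 50.8 in Smad4 KO, and 33.2 and 33.4 in Smad4 KO+TGFb. Acaa1a was at 73.4 and 83.8, 151 and 135, and 122 and 104 CPM. In both genes the groups did not overlap and the treated libraries lay between the others. Acaa1b rose 2.42-fold in Smad4 KO (1.27 ± 0.13, edgeR adjusted p = 0.000779) and Acaa1a 1.82-fold (0.86 ± 0.11, edgeR adjusted p = 0.00176). With TGF-β Acaa1b was lower (-0.69 ± 0.13, edgeR adjusted p = 0.015), while Acaa1a did not pass (-0.34 ± 0.11, edgeR adjusted p = 0.0858) except by DESeq2 (0.0256). The Acaa1b call was lost without Smad4 KO library 1 (0.0815) or either treated library (0.0795 and 0.0753). Summed to 1 feature, the thiolases rose in Smad4 KO (0.96 ± 0.08, edgeR adjusted p = 0.000377), were lower with TGF-β (-0.43 ± 0.08, edgeR adjusted p = 0.0167) and stayed above WT (0.54 ± 0.08, edgeR adjusted p = 0.00297). Against WT the treated level was also called for each alone (0.52 for Acaa1a, edgeR adjusted p = 0.00978, and 0.58 for Acaa1b, edgeR adjusted p = 0.0133), but not for Acaa1a without WT library 1 (0.0556) nor for Acaa1b without either treated library (0.051 and 0.0548).

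Acyl-CoA thioesterases release free fatty acids from coenzyme A. Of the 5 members, 4 rose in Smad4 KO and 1, Acot2, fell with TGF-β. The shares over all genes tested were 16.9% and 8.48%, and 1 fall among 5 does not set these genes apart. Acot1, the cytosolic enzyme, was at 42.1 and 42.2 CPM in WT, 87.4 and 58.5 in Smad4 KO, and 50.9 and 37.6 in Smad4 KO+TGFb. The Smad4 KO libraries differed by much from each other, and the treated libraries lay on either side of WT. The rise in Smad4 KO (log2 fold change 0.79 ± 0.21, edgeR adjusted p = 0.0331) was lost without WT library 1 (0.126), WT library 2 (0.123) or Smad4 KO library 1 (0.129). The difference with TGF-β did not pass (-0.72 ± 0.21, edgeR adjusted p = 0.0699), but did without Smad4 KO library 2 (0.0277), with a replicate block (0.0333), with no filter on low counts (0.0371) and with DESeq2 (0.007). Acot2, its mitochondrial neighbour on chromosome 12, was at 13.8 and 12.7, 18.7 and 18.3, and 10.8 and 10.2 CPM. It fell with TGF-β by 0.81 ± 0.12 (edgeR adjusted p = 0.00503), below both WT libraries. Its rise in Smad4 KO (0.48 ± 0.11, edgeR adjusted p = 0.0214) was lost whichever WT or Smad4 KO library was left out (0.0539 to 0.105). Acot1 and Acot2 match at 93.8% over 1337 bases, and their sum rose in Smad4 KO (0.72 ± 0.18, edgeR adjusted p = 0.0233) and was lower with TGF-β (-0.74 ± 0.18, edgeR adjusted p = 0.035).

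Acot8, of peroxisomes, and Acot13, of mitochondria, rose in Smad4 KO by 0.45 and 0.31 (edgeR adjusted p = 0.0243 and 0.0292) and were not called with TGF-β (edgeR adjusted p = 0.483 and 0.0506). Acot13 was called lower with TGF-β by DESeq2 (adjusted p = 0.015) and with values divided by 4 (0.042). Acot8 ran from 20.5 to 29.4 CPM and Acot13 from 41.9 to 55.8 CPM over the 6 libraries. The rise of Acot8 was lost whichever WT or Smad4 KO library was left out (0.0546 to 0.113), and that of Acot13 without either WT library (0.133 and 0.0807) or Smad4 KO library 2 (0.135). Acot12, a cytosolic thioesterase for acetyl-CoA, was close to the limit of detection. It had 6 and 4 units in WT, 9 and 0 units in Smad4 KO, and 56 and 36 units in Smad4 KO+TGFb. Over a group, WT and Smad4 KO had 10 and 9 units, both under the floor of 12 units (3 fragments), and the treated group had 92. Because the gene passed the filter only through the treated libraries, it had to be higher there, so no fold change or test is given. It was the member with the repeat of 1 mismatch before its start, printed above.

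The 3 members grouped as other PPAR targets were Plin2, Angptl4 and Pdk4. Among these 3, only Plin2 had both treated libraries above both Smad4 KO libraries. Plin2 (chr4:86648386-86670060, minus strand) encodes perilipin 2, a coat protein of lipid droplets. It was at 52.8 and 56.2 CPM in WT, 81.9 and 77.2 in Smad4 KO, and 86.1 and 92.9 in Smad4 KO+TGFb. It rose in Smad4 KO (log2 fold change 0.54 ± 0.07, edgeR adjusted p = 0.00217) and stood 1.64-fold above WT with TGF-β (0.71 ± 0.07, edgeR adjusted p = 0.000461). Between treated and untreated Smad4 KO the difference did not pass (0.17 ± 0.07, edgeR adjusted p = 0.179), though the libraries did not overlap.

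Angptl4 encodes a secreted inhibitor of lipoprotein lipase. It was at 9.45 and 8.60 CPM in WT, 12.6 and 16.6 in Smad4 KO, and 13.3 and 10.4 in Smad4 KO+TGFb. All 4 Smad4-deficient libraries lay above WT, and those of Smad4 KO and Smad4 KO+TGFb overlapped. The rise in Smad4 KO (0.69 ± 0.19, edgeR adjusted p = 0.0378) was lost with a replicate block (0.063) and without WT library 1 (0.1), WT library 2 (0.155) or Smad4 KO library 2 (0.165). With TGF-β it was not called against Smad4 KO (-0.30 ± 0.19, edgeR adjusted p = 0.369) or WT (0.39 ± 0.19, edgeR adjusted p = 0.159). Pdk4, the kinase that shuts down pyruvate dehydrogenase when fat is burned and a target of PPARs in muscle and liver, was not far above the floor of 12 units. It had 32 and 28 units in WT, 0 and 22 units in Smad4 KO, and 21 and 0 units in Smad4 KO+TGFb. At this depth no difference was detectable (Smad4 KO against WT, -1.19 ± 1.87, edgeR adjusted p = 0.686).

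**Figure D3:**
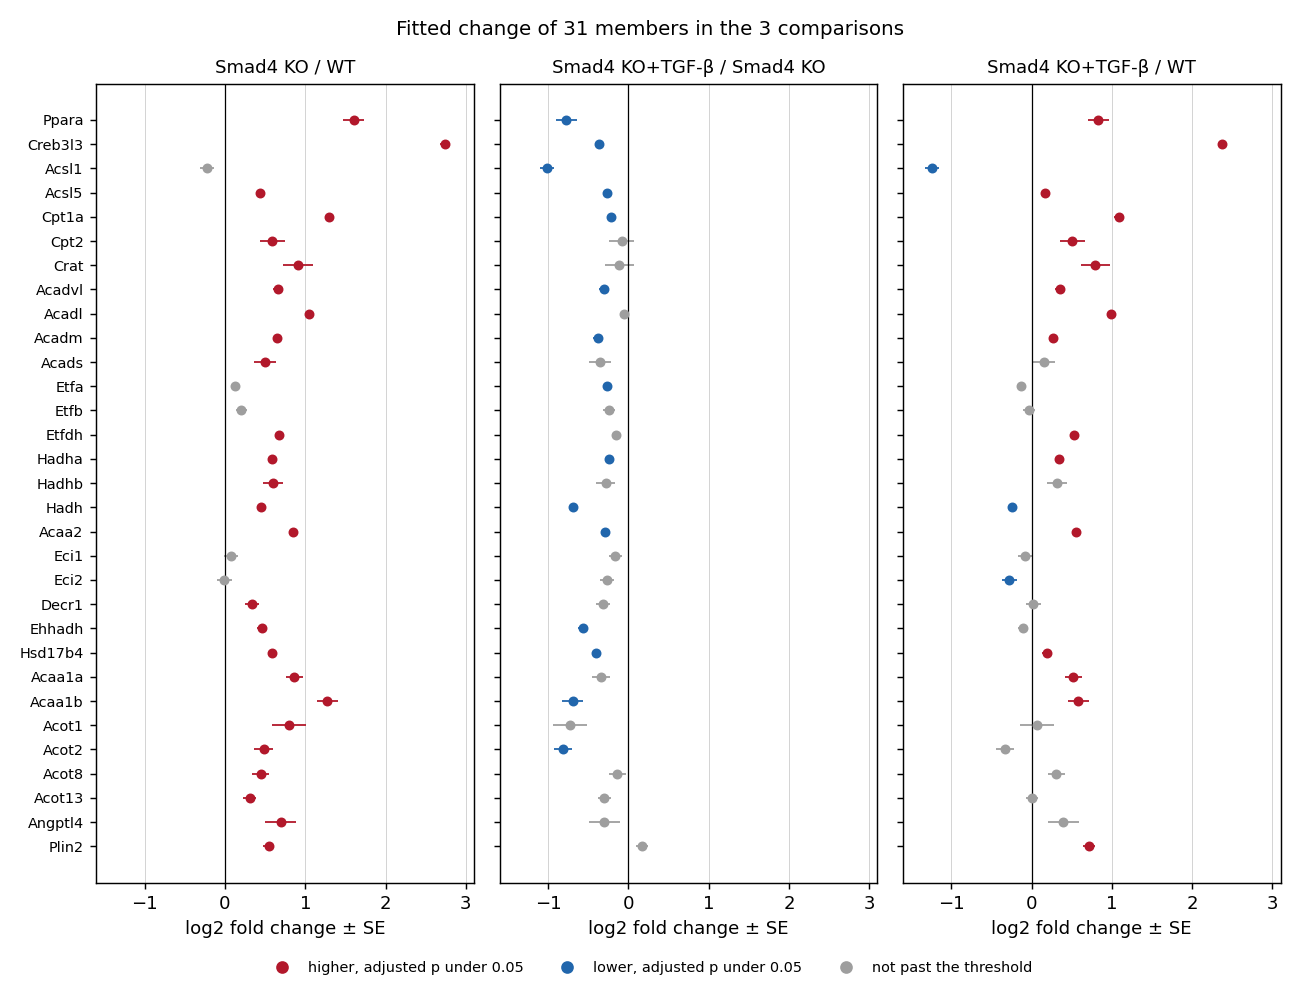
Fitted log2 fold change with its SE for the 31 members other than Acot12 and Pdk4 in the 3 comparisons, red for higher, blue for lower and grey for not past an adjusted p of 0.05. In Smad4 KO against WT 26 points are red and none blue, with TGF-β 15 are blue and none red, and in treated organoids against WT 16 are red and 3 blue.

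The members span a wide range of levels. Per kb of exon in WT, Acaa2 (113 CPM per kb), Acsl5 (94.4), Etfa (89.7) and Hadh (73.2) had the highest levels. Ppara (3.89), Angptl4 (2.55), Pdk4 (0.178) and Acot12 (0.031) had the lowest. The length used joins the exons of all annotated transcripts, which for Hadhb is 6595 bases against 2048 in its longest coding transcript. The order of genes therefore depends in part on the annotation. The order of levels changed in Smad4 KO, where Acadl rose from 50.8 to 105 CPM per kb and Creb3l3 from 14.3 to 95.7 CPM per kb, next to Etfa at 98 CPM per kb. In the treated organoids Creb3l3 was at 74.3 CPM per kb, and Acsl1 had gone from 8.85 in WT to 3.75 CPM per kb. Members were counted by the place where the enzyme works, each in 1 place only, with Eci2 and Crat as mitochondrial. By this count, 15 of 20 mitochondrial and 5 of 5 peroxisomal members rose in Smad4 KO. With TGF-β, 8 of 20 and 3 of 5 fell. Of all genes tested, 16.9% rose and 8.48% fell in these comparisons. In treated organoids against WT, 9 of the 20 mitochondrial members were higher and 2 lower, and 3 of the 5 peroxisomal members were higher, beside 20.7% higher and 19% lower over all genes.

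**Figure D4:**
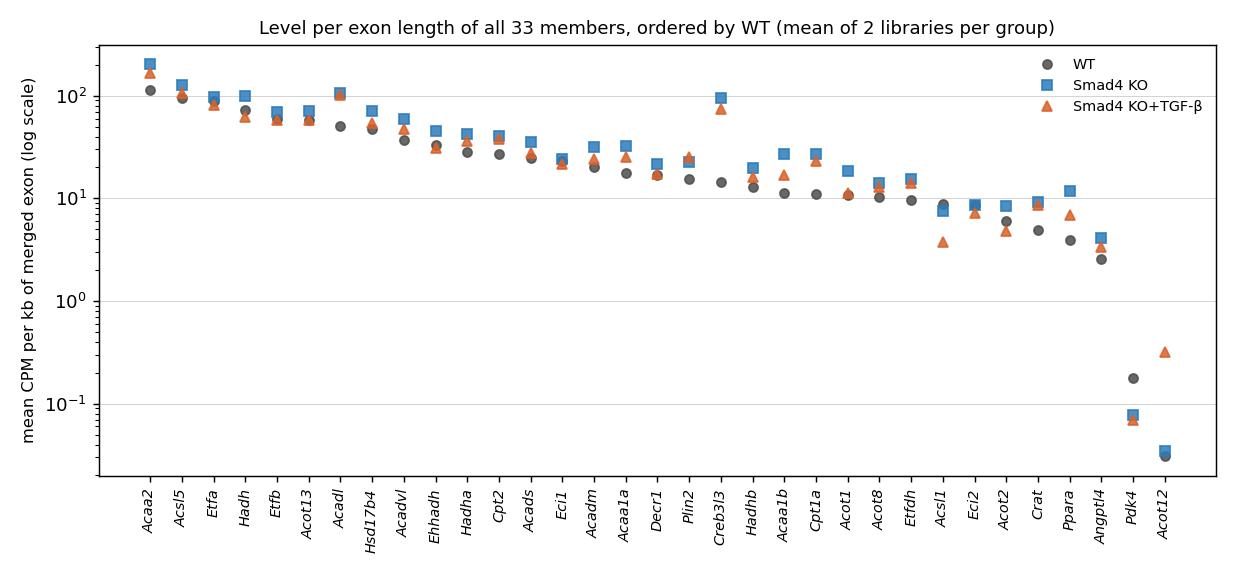
Mean level of all 33 members per kb of merged exon on a log axis, ordered by WT, with 1 symbol for the mean of the 2 libraries of each group. Levels run from 113 CPM per kb (Acaa2) to 0.031 CPM per kb (Acot12) in WT, and Creb3l3 stands out in both Smad4-deficient groups.

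Genes of the same pathways outside the 33 were counted from lists drawn up by function. Some genes are on more than 1 list, such as Ech1 on both the peroxisomal and the mitochondrial list. Over all genes tested, 16.9% rose and 13.4% fell in Smad4 KO, and 7.78% rose and 8.48% fell with TGF-β. Among 24 other peroxisomal genes tested, 14 rose and 1 fell in Smad4 KO, and 1 rose and 9 fell with TGF-β. Their median log2 fold changes were 0.44 and -0.37. Acot4, a peroxisomal thioesterase, rose in Smad4 KO by 2.78 ± 0.12 (edgeR adjusted p = 2.04e-05), and catalase (Cat) by 0.94 ± 0.04 (edgeR adjusted p = 2.87e-05). Slc27a2, a synthetase for very long chains, fell with TGF-β by 1.31 ± 0.07 (edgeR adjusted p = 0.000106).

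Among 22 other mitochondrial genes, 5 rose and 4 fell in Smad4 KO, and 1 rose and 6 fell with TGF-β. In Smad4 KO this was 40.9% called in either direction, near the 30.3% of all genes. Their median log2 fold change was 0.05 in Smad4 KO and -0.24 with TGF-β. Slc25a20, the carrier that brings acylcarnitines across the inner membrane, was at 33.5 and 30.6 CPM in WT, 68.9 and 73.2 in Smad4 KO, and 65.8 and 61.6 in Smad4 KO+TGFb. The level rose in Smad4 KO (1.15 ± 0.08, edgeR adjusted p = 0.000159) and was not called with TGF-β (-0.16 ± 0.08, edgeR adjusted p = 0.251). Acad11, another acyl-CoA dehydrogenase, rose in Smad4 KO by 1.58 ± 0.10 (edgeR adjusted p = 8.42e-05). Cpt1b, the muscle form of carnitine palmitoyltransferase, was at 0.74 and 1.73 CPM in treated libraries against 6.26 and 6.76 CPM in Smad4 KO (-2.39 ± 0.40, edgeR adjusted p = 0.00922).

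Of 30 other PPAR targets tested, 15 rose and 5 fell in Smad4 KO, and 3 rose and 10 fell with TGF-β, with medians of 0.23 and -0.31. Fabp1, the fatty acid carrier that is also an enterocyte marker here, was at 473 and 474 CPM in WT, 1235 and 1312 in Smad4 KO, and 621 and 608 in Smad4 KO+TGFb. It rose by 1.43 ± 0.04 in Smad4 KO (edgeR adjusted p = 1.91e-06) and fell by 1.05 ± 0.03 with TGF-β (edgeR adjusted p = 2.28e-05). Vnn1, a pantetheinase, rose in Smad4 KO (1.77 ± 0.10, edgeR adjusted p = 7.38e-05) and rose further with TGF-β (0.76 ± 0.10, edgeR adjusted p = 0.00374). Of 24 partners and other regulators tested, 9 rose and 1 fell in Smad4 KO, and 2 rose and 7 fell with TGF-β. RXRα (Rxra), the partner of PPARα on DNA, was at 87.4 and 92.7 CPM in WT, 135 and 136 in Smad4 KO, and 104 and 94.2 in Smad4 KO+TGFb. It rose in Smad4 KO (0.59 ± 0.07, edgeR adjusted p = 0.0011) and fell with TGF-β by 0.45 ± 0.07 (edgeR adjusted p = 0.00566). Pparg, the receptor best known from fat cells and colon, rose in both steps, from 22.6 and 22.6 CPM in WT to 38.5 and 37.2 CPM in Smad4 KO (edgeR adjusted p = 0.000604) and to 55.5 and 57.0 CPM with TGF-β (edgeR adjusted p = 0.00315). Hnf4g, a nuclear receptor of enterocytes, rose by 1.68 ± 0.05 in Smad4 KO (edgeR adjusted p = 5.91e-06) and fell by 0.94 ± 0.05 with TGF-β (edgeR adjusted p = 0.000136).

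**Figure D5:**
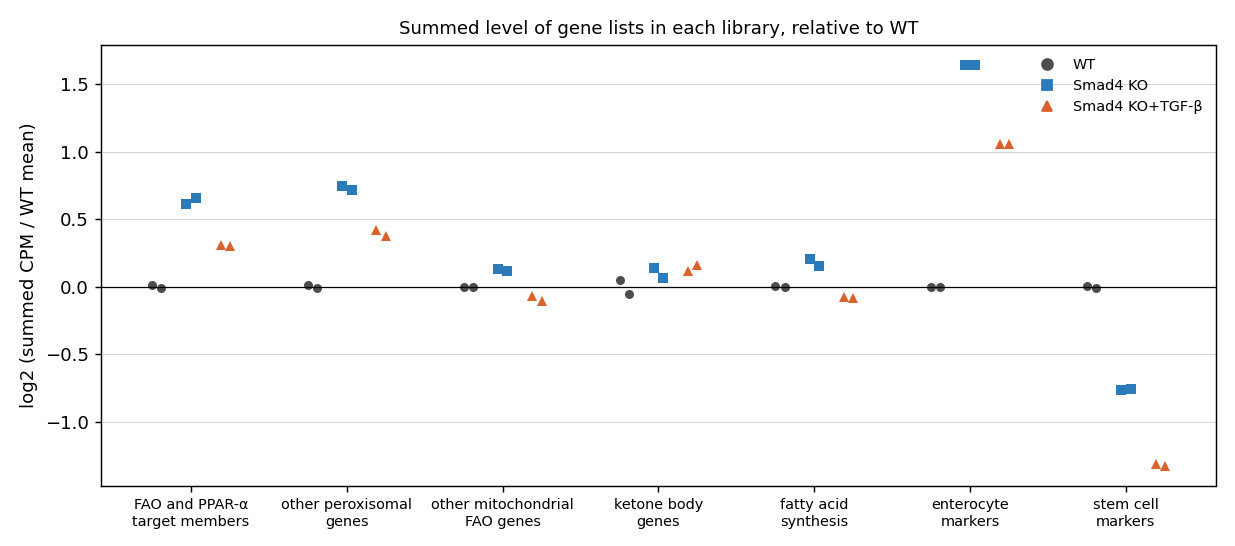
Log2 ratio of the summed CPM of each gene list to its WT mean, with 1 symbol per library. The members, the other peroxisomal genes and the enterocyte markers are highest in Smad4 KO and intermediate with TGF-β, the other mitochondrial genes stay near WT (1060 CPM in both WT libraries, 1160 and 1150 CPM in Smad4 KO), and the stem cell markers are lower in each step.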

How the data were processed

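RNA was extracted with TRIZOL, primed with random hexamers and sequenced from 6 libraries, per the labels' protocols, and libraries were grouped by their titles. The authors deposited estimated counts, whole numbers for each Ensembl gene in each library. The submitters' processing notes name StringTie 1.3.3b, HISAT2 2.1.0, SAMtools 1.9, FastQC 0.11.9 and the build GRCm38 (mm10). Which annotation, strand setting and rounding produced them is not given in the sources used here. Multiples of 4 made up 42.3% of the values between 1 and 24, where an even spread would give 25%, so a fragment was taken to add about 4 units. Values of overlapping genes and of close copies are uncertain, because StringTie shares fragments out among transcripts.

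Genes were filtered with filterByExpr (minimum count 10), scaled by TMM and tested with edgeR 4.0.16 (R 4.3.3; glmQLFit and glmQLFTest, 2-sided) in 1 fit of all 6 libraries with a mean per group. Benjamini-Hochberg adjustment ran over all 15503 genes, and calls were made at an adjusted p under 0.05. The script was tested on simulated data. CPM per kb used merged exons of GENCODE M21. Near-identical copies were found with BLAST 2.17.0 among transcripts, at an identity of at least 90% over at least 20% of the transcript. Promoter sequences came from RefSeq (GRCm38.p6).

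The members, the gene lists and the tests were chosen with earlier results of these data known. Values in each library were given for Ppara, for members with the largest log2 fold change or the largest mean level within their role, and for the 12 with the smallest adjusted p. The remaining members were given in short, and from other lists up to 3 called genes with the smallest adjusted p. Some genes that this rule names are not reported here. Alternatives were DESeq2 1.42.0, its size factors, no filter, a replicate block, the 4 libraries compared alone, values divided by 4, summed pairs of near-identical genes, and each library left out in turn.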

Additional observations from a re-analysis of the deposited data

How the results depend on the processing

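In Smad4 KO against WT the count of members called higher ran from 24 to 28 over the settings that kept all libraries of the groups compared (28 with DESeq2, 25 with a replicate block) and from 18 to 25 with 1 library left out. No member was called lower in any setting, and the median log2 fold change ran from 0.543 to 0.592 with 1 library left out. With TGF-β against Smad4 KO the count called lower ran from 15 to 20 (15 with a replicate block) and, with 1 library left out, from 9 to 15, the 9 without either treated library. The count called higher was 0 to 1 with 1 library left out, the 1 being Acot12 without Smad4 KO library 1, a gene that passed the filter only through the treated libraries. In treated organoids against WT, 15 to 19 were called higher and 2 to 3 lower (15 and 2 with a replicate block), or 11 to 16 and 2 to 3 with 1 library left out. Acot12 was in that higher count with DESeq2, in the fit of the 4 libraries compared and without either Smad4 KO library. Because it passed the filter only through the treated libraries, those calls are not evidence of a change. A group left with 1 library was assumed to vary like the others. Over all genes tested, fewer were also called with 1 library left out, in each comparison. DESeq2 gave the upper ends of 28, 20 and 19, and it also called more of all genes tested. These shares were 35.7%, 22.4% and 43.9%, against 30.3%, 16.3% and 39.7% with edgeR. The count of 24 in Smad4 KO against WT came from summing near-identical pairs. That setting merged Acaa1a with Acaa1b and Acot1 with Acot2, and both sums were called higher. Calls held in every setting for 16 of 26, 9 of 15 and 12 of 19 members. Same-numbered libraries did not deviate together over all genes tested (correlations of 0.001 to 0.014). With 2 libraries a group this cannot tell whether same-numbered libraries shared a culture or animal, which the labels do not say.

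Of 1233 values of single members other than Acot12, 1116 kept their direction and side of the threshold, 85 lost a call, 18 gained 1 and 14 changed sign. All 14 were genes not called, with 1 library left out, where log2 fold changes ran as follows. In Smad4 KO against WT, Eci1 ran from -0.022 to 0.184 and Eci2 from -0.105 to 0.103. With TGF-β against Smad4 KO, Cpt2 ran from -0.214 to 0.039, Crat from -0.29 to 0.087 and Pdk4 from -6.602 to 6.45. In treated organoids against WT, Etfb ran from -0.09 to 0.025, Eci1 from -0.181 to 0.024, Acot13 from -0.027 to 0.044, Decr1 from -0.085 to 0.128 and Acot1 from -0.156 to 0.274. The cause of these changes was not tested. With 2 libraries a group, small differences are limited by the spread, and Acot12 and Pdk4 by depth.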

Other observations

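Ketone body and fatty acid synthesis genes are described here as values only. Of 9 ketone body genes, 3 rose and 2 fell in Smad4 KO against WT, and 2 rose and 1 fell when TGF-β was added (edgeR adjusted p under 0.05). Over all genes tested, 16.9% rose and 13.4% fell in the former comparison, and 7.78% rose and 8.48% fell in the latter. Acat1, which forms acetoacetyl-CoA in mitochondria, rose in both steps (0.43 ± 0.05 and 0.32 ± 0.05, edgeR adjusted p = 0.00137 and 0.00773). Slc16a6, of the monocarboxylate transporter family, fell from 77.0 and 73.0 CPM in WT to 36.9 and 35.6 CPM in Smad4 KO and 16.7 and 15.5 CPM with TGF-β (edgeR adjusted p = 0.000207 and 0.000268).

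Of 14 fatty acid synthesis genes tested, 6 rose and 5 fell in Smad4 KO, and 1 rose and 5 fell with TGF-β, with median log2 fold changes of 0.07 and -0.15. Me1, the malic enzyme that supplies NADPH and also a PPAR target, rose in Smad4 KO (1.85 ± 0.05, edgeR adjusted p = 3.76e-06) and again with TGF-β (0.27 ± 0.05, edgeR adjusted p = 0.0161). Scd1, a desaturase, rose in Smad4 KO by 0.77 ± 0.03 (edgeR adjusted p = 1.1e-05) and fell with TGF-β by 0.79 ± 0.03 (edgeR adjusted p = 3.08e-05), to 547 and 545 CPM against 565 and 542 CPM in WT. Fads1, another desaturase, fell in both steps (-0.65 ± 0.04 and -0.27 ± 0.04, edgeR adjusted p = 0.000134 and 0.00806).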
